A study of Homo sapiens with 12 samples.

Results

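The interferon response and RNA sensing genes are a list of 42 genes, chosen by name, that code for sensors of abnormal RNA or DNA, the transcription factors they act through, and antiviral and antigen-presenting proteins. Of these, 41 were found among the 35238 genes of the deposited table, under the older symbols DDX58 (RIG-I, now RIGI) and TMEM173 (STING, now STING1); PSMB8-AS1 was not found. They were followed in HK-2 cells, an immortalised human kidney proximal tubule line, by bulk RNA sequencing. All cells received an RNA duplex at 10 nM: either a scrambled short interfering RNA (SCR) or one against POLR2A (siB), the gene of RPB1, the catalytic core subunit of RNA polymerase II. At the same time they were exposed for 24 hours to AAI (aristolochic acid I, a nephrotoxin of plants that damages DNA) at 25 µM or to its solvent DMSO, which makes 4 groups (SCR DMSO, SCR AAI, siB DMSO and siB AAI) of 3 replicates and 12 libraries. Since every group carried a double-stranded RNA, no comparison here shows the effect of transfection itself. Groups were taken from the sample titles, because the labels give DMSO as the treatment even of samples whose title says AAI. Nothing stated whether replicates were separate cultures, so p-values measure the spread between these samples, which may be technical.

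RIG-I and MDA5 (IFIH1) recognise double-stranded RNA in the cytosol and signal through MAVS, whereas STING relays the detection of cytosolic DNA. Both routes activate IRF3 and IRF7, which switch on interferon genes. Secreted interferon acts through its receptors and JAK kinases on a complex that holds STAT2 and IRF9 and binds interferon-stimulated response elements in the promoters of most of the other genes of the list. Damaged tubule cells can activate this programme when their own DNA or RNA reaches the cytosol.

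The libraries held 15844015 to 42805294 reads, so that 3 reads, the limit that a count of 0 allows, stood for 0.0701 to 0.189 CPM (reads of a gene scaled to a common library total); such limits cover counting error only. The knockdown was seen in the target. POLR2A averaged 284 ± 24.2 CPM in SCR and 140 ± 2.61 CPM in siB cells with DMSO, and 707 ± 30.1 CPM in SCR and 232 ± 29.5 CPM in siB cells with AAI (mean ± SD, n = 3), and no siB library overlapped an SCR library of the same treatment. It was 1.61 ± 0.15 (SE) lower with siB in AAI on the log2 scale (limma, adjusted p = 0.00058). In DMSO the log2 change was -1.01 ± 0.13 (adjusted p = 0.51 over 13606 genes). Of the proximal tubule markers, PAX8 and GGT1 were detected in every library, at 96.0 CPM at the least, whereas LRP2, CUBN, AQP1, HNF4A and SLC34A1 were at 2.26 CPM or less. SCR DMSO replicate 2 stood apart. On the second principal component, which held 18.9% of the variance, it lay at -61.6 against 57.5 and 20.1 for the other SCR DMSO libraries. Of the 38 members with a mean CPM of at least 1, 10 were lower there by 2-fold or more than in both other SCR DMSO libraries (DDX58, EIF2AK2, IFI16, IFI44, IFI44L, IFIH1, IFIT1, IFIT3, IFIT5 and OAS2), which is 26.3% against 21.5% of all 14465 genes at that level. The changes of these 10 members against SCR DMSO are given with and without this library where it turned their direction, changed a call or moved them by over 1.5 times.

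The levels of the members covered a wide range. As a mean over 12 libraries, 3 members were under 1 CPM (IFITM2, OASL and TRIM22), 13 lay from 1 to under 10 CPM, 18 from 10 to under 100 CPM and 7 at 100 CPM or more. Per kilobase of merged exons, antigen presentation and tetherin led: B2M, the shared light chain of HLA class I molecules, stood at 114 CPM per kb, BST2 (tetherin, which holds budding virus at the membrane) at 91.2 CPM per kb, HLA-C at 88.8 CPM per kb and HLA-B at 44.3 CPM per kb. ISG15, a ubiquitin-like modifier, stood at 35.7 CPM per kb. The sensors were lower than these genes on the same scale, but not the lowest of the list. ADAR was at 28.9 CPM per kb, EIF2AK2 at 8.61 CPM per kb and IFI16 at 8.07 CPM per kb. DHX58 was at 2.96 CPM per kb, DDX58 at 1.11 CPM per kb and IFIH1 at 0.859 CPM per kb. The adaptor MAVS was at 17.2 CPM per kb and TRIM25 at 12.3 CPM per kb. Some effectors lay below all of these, such as MX2 at 0.529 CPM per kb and MX1 at 0.445 CPM per kb. Reads of HLA-B and HLA-C, of the IFITM genes and of the IFIT genes may be shared between similar copies, so their levels are uncertain. IFIT1, IFIT2 and IFIT3 also overlap LIPA on the opposite strand. Whether reads were counted by strand is not stated, so reads of LIPA cannot be told apart from theirs.

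**Figure D1:**
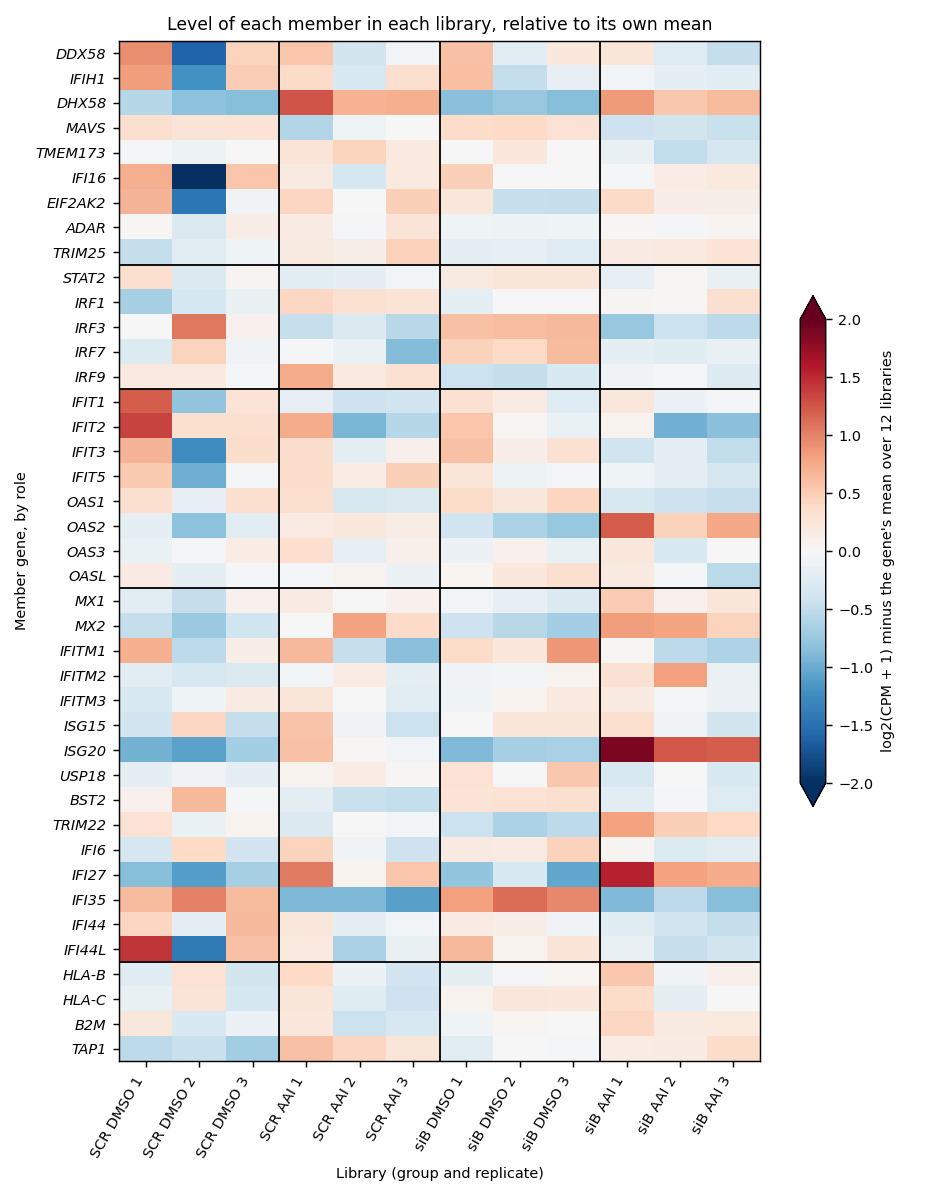
Level of each of the 41 members (rows, by role) in each of the 12 libraries (columns), as log2(CPM + 1) minus the mean of that gene over all libraries; red is higher and blue is lower than the gene's own mean. IFI35 is blue and DHX58 red in every AAI library, and SCR DMSO replicate 2 is blue for DDX58, IFIH1, IFI16, IFIT3 and IFI44L while the other SCR DMSO libraries are not.

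The promoters show which members carry the sequences that interferon-activated factors recognise. Promoter sequence from RefSeq (GRCh38.p14; 250 bases before to 50 after each start) was found for 30 of the 41 members. The core of the interferon-stimulated response element (GAAA, any 2 bases, then GAAA, searched on both strands) was present in at least 1 such window of 18 of these 30 members (60%), against 4.38% of 27305 genes. A gamma-activated site (TTCNNNGAA, which reads the same on both strands and is known from genes induced by interferon gamma) was present in 9 of 30 members (30%), against 9.38% of all genes; both motifs may overlap each other. No promoter entry was found for MX2, USP18, OAS2, IFIT2, IFITM2, IRF3, TMEM173, TRIM22, OASL, DHX58 and IRF7. The 250 bases before the start are shown for the 4 members past the test with AAI in SCR cells that had an entry (TAP1 and IFI27 have a further start each, not shown), 5′ to 3′ on the strand of the gene, with matches to either motif in capitals. IFI35 (chr17:43006534-43006783, plus strand) holds a gamma-activated site and no response element core, ISG20 (chr15:88638766-88639015, plus strand) holds 1 core, TAP1 (chr6:32853705-32853954, minus strand) holds overlapping cores, and IFI27 (chr14:94110486-94110735, plus strand) holds a core on each strand, both overlapping a gamma-activated site.
IFI35: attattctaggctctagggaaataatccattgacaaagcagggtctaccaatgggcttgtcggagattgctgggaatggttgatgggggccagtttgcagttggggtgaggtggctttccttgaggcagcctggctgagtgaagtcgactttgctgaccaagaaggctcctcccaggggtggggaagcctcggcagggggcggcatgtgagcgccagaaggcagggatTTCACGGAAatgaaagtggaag
ISG20: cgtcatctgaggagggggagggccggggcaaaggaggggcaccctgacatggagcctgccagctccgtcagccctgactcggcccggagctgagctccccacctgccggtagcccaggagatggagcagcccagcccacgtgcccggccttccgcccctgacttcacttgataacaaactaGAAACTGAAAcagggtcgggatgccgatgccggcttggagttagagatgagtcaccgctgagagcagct
TAP1: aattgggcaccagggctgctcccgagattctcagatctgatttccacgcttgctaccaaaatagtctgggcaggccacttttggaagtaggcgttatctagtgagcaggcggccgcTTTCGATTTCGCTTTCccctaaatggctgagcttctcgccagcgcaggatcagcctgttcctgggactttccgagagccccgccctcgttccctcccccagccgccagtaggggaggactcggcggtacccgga
IFI27: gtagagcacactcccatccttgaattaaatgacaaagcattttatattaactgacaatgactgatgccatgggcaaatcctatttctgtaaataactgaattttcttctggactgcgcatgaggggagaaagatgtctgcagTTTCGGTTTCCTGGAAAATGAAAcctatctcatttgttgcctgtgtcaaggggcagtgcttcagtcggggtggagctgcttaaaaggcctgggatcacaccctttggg

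The first question was how AAI moved these genes in SCR cells and in POLR2A knockdown cells. The members did not move one way. In SCR cells DHX58, IFI27, ISG20 and TAP1 rose and IFI35 fell; in siB cells DHX58, IFI27 and ISG20 rose, as did MX2, OAS2, TRIM22, TRIM25 and B2M, while IFI35, IRF3, MAVS, IRF7, OAS1, IFITM1, IFIT3, IFI44L, BST2, IFI44 and STAT2 fell. A gene was past the test at an adjusted p under 0.05 (limma, Benjamini-Hochberg over all genes tested in that comparison), and changes are on the log2(CPM + 1) scale, which understates those of low genes. In SCR cells 38 members were tested, 4 were higher (10.5%) and 1 was lower (2.63%), where 8.98% of all 14228 genes tested were higher and 3.36% lower. Requiring a change of at least 2-fold left 3 higher, against 7.73% of all genes, and 1 lower, against 2.73%. In siB cells 39 members were tested, 8 were higher (20.5%) and 11 lower (28.2%), against 30.4% and 21.8% of 14928 genes. With the 2-fold limit 6 were higher, against 13.9% of all genes, and 2 lower, against 5.79%. OAS2 and TRIM22 passed the level filter in siB cells only through the AAI libraries and IFI44 only through the DMSO libraries, so these 3 had to differ to be tested. In SCR cells OAS2 was likewise tested only through its AAI libraries. With no overlap between the 3 AAI and 3 DMSO libraries there were 11 members higher and 4 lower in SCR cells, against 22.2% and 11.5% of all genes, and 13 higher and 13 lower in siB cells, against 34.2% and 26.6%. At an unadjusted p under 0.05 there were 12 members in SCR cells, against 27.0% of all genes in either direction, and 25 in siB cells, against 58.5%. In SCR cells, where libraries with the same replicate number deviated together, the replicate number as a block gave 5 higher and 3 lower of the 38, where 14.7% of all genes were higher and 6.4% lower. Without SCR DMSO replicate 2 and without the block, 8 of the 38 members and 3156 of the 14228 genes were past the test in either direction.

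Levels are relative to all reads of a library, and fewer cells of a kind and less RNA per cell cannot be told apart in such samples. The median log2 change of the members tested was 0.11 in SCR cells and -0.12 in siB cells, against 0.18 and 0.10 over all genes tested. Scaling by median ratios in place of total reads moved the median of all genes by -0.18 in SCR cells and by -0.11 in siB cells. Relative to these shifts, all genes past the test in SCR cells went from 1277 higher and 478 lower to 1088 higher and 801 lower, and the members from 4 higher and 1 lower to 3 higher and 1 lower; in siB cells all genes went from 4535 higher and 3259 lower to 4016 higher and 4024 lower, and the members from 8 higher and 11 lower to 7 higher and 15 lower.

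**Figure D2:**
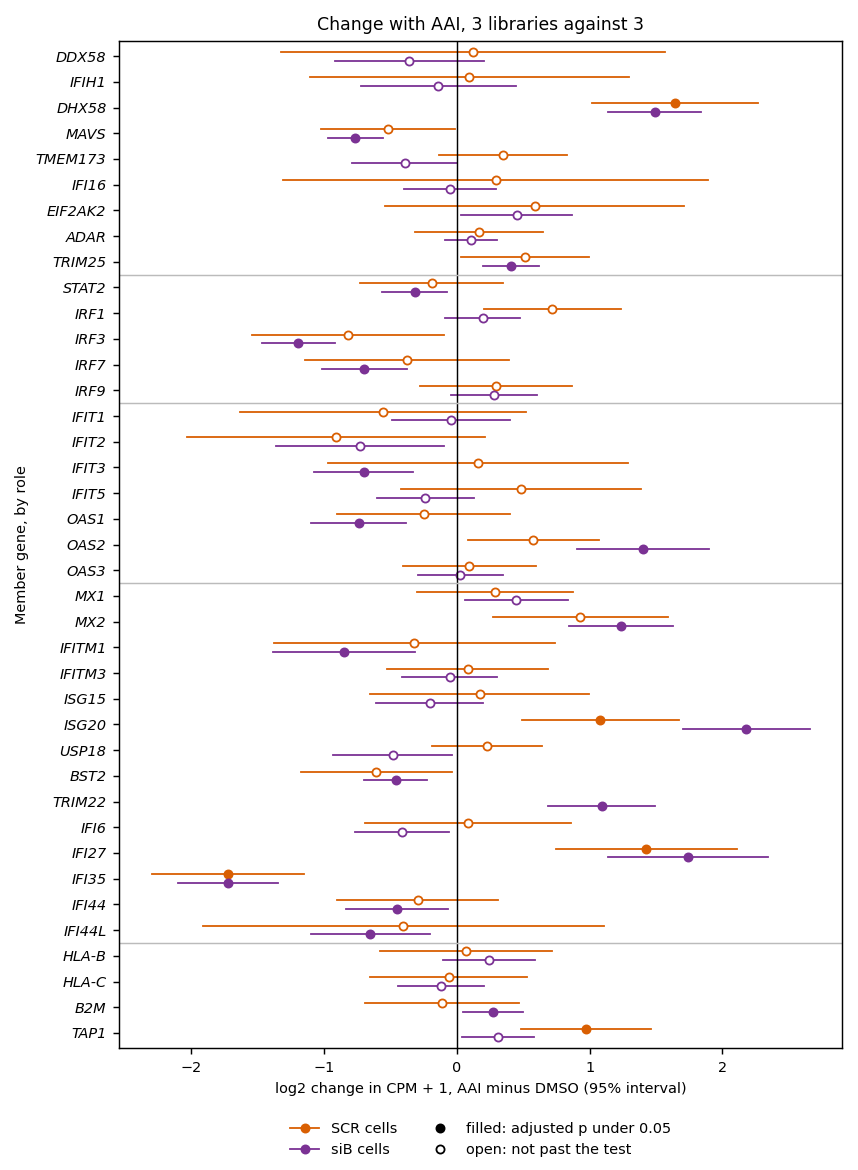
Change with AAI of the 39 members tested in at least 1 comparison (log2 of CPM + 1, AAI minus DMSO), in SCR cells (orange) and siB cells (purple), each 3 libraries against 3; lines are 95% intervals and filled points are past the test. IFI35 lies near -1.72 in both and DHX58 at 1.64 and 1.49, and the intervals of IFI16, IFI44L and DDX58 in SCR cells are among the widest.

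Among the 9 sensors and adaptors, 1 rose in SCR cells and 2 rose and 1 fell in siB cells. Over all genes tested, 8.98% rose and 3.36% fell in SCR cells, and 30.4% rose and 21.8% fell in siB cells. DHX58 codes for LGP2, the relative of RIG-I and MDA5 that lacks signalling domains and tunes both. It stood at 6.10, 4.98 and 4.85 CPM in SCR DMSO, 24.4, 16.2 and 16.2 in SCR AAI, 4.96, 5.28 and 4.85 in siB DMSO, and 18.1, 14.4 and 15.5 in siB AAI. Every AAI library was above every DMSO library. The change was 1.64 ± 0.27 (SE) in SCR cells (adjusted p = 0.0065) and 1.49 ± 0.16 in siB cells (adjusted p = 6.6e-05), and it was past the test under 13 of 13 alternatives in each. MAVS, the mitochondrial adaptor, stood at 247, 236 and 239 CPM in SCR DMSO, 131, 185 and 195 in SCR AAI, 254, 260.0 and 242 in siB DMSO, and 147, 152 and 144 in siB AAI. All AAI libraries were below all DMSO libraries, and the 3 siB AAI libraries lay closer together than those of SCR AAI. In siB cells MAVS fell by 0.76 ± 0.09 (adjusted p = 0.00014), whereas the change of -0.52 ± 0.22 in SCR cells was not past the test (adjusted p = 0.17). TRIM25, the ubiquitin ligase that acts on RIG-I, averaged 126 ± 17.3 CPM in SCR DMSO, 181 ± 23.5 in SCR AAI, 131 ± 4.28 in siB DMSO and 175 ± 6.15 in siB AAI (SD, n = 3). It rose by 0.41 ± 0.09 in siB cells (adjusted p = 0.0050), and the change in SCR cells, 0.52 ± 0.21, was not past the test (adjusted p = 0.16). With all 4 groups in the limma fit, MAVS and TRIM25 were past the test in SCR cells as well (adjusted p = 0.025 and 0.020).

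The RNA sensors that signal through MAVS were not past the test in either background. DDX58 averaged 12.8 ± 9.22 CPM in SCR DMSO, 11.3 ± 4.14 in SCR AAI, 12.5 ± 3.77 in siB DMSO and 9.48 ± 2.75 in siB AAI (SD, n = 3). The SCR DMSO libraries ran from 2.78 CPM in replicate 2 to 20.9 CPM in replicate 1 and overlapped those of SCR AAI. The change in SCR cells was 0.12 ± 0.63 with all libraries and -0.64 ± 0.31 without SCR DMSO replicate 2 (adjusted p = 0.17). IFIH1 averaged 5.20 ± 3.59, 4.76 ± 1.42, 4.36 ± 2.16 and 3.64 ± 0.308 CPM in the same order of groups, and its change in SCR cells went from 0.10 to -0.53 ± 0.29 without that library (adjusted p = 0.22). IFI16, a nuclear and cytosolic DNA sensor, was at 8.32 CPM in SCR DMSO replicate 2 against 65.4 and 57.8 CPM in the other SCR DMSO libraries. Its change in SCR cells was 0.29 ± 0.69 with that library and -0.62 ± 0.24 without it (adjusted p = 0.088). EIF2AK2, the kinase PKR that halts translation on double-stranded RNA, averaged 86.8 ± 55.5, 112 ± 19.5, 77.6 ± 23.3 and 104 ± 11.2 CPM, with changes of 0.59 ± 0.49 in SCR cells (adjusted p = 0.48; 0.00 without SCR DMSO replicate 2) and 0.45 ± 0.19 in siB cells (adjusted p = 0.068). ADAR, which edits adenosines in double-stranded RNA and so hides it from the sensors, stayed between 287 and 420.0 CPM in all 12 libraries. TMEM173 averaged 3.10 ± 0.121, 4.23 ± 0.477, 3.47 ± 0.432 and 2.41 ± 0.407 CPM, with a change of 0.35 ± 0.21 in SCR cells (adjusted p = 0.33) and of -0.39 ± 0.18 in siB cells (adjusted p = 0.087).

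Of the 5 transcription factors, none was past the test in SCR cells, and 3 fell in siB cells, where 21.8% of all genes tested fell. IRF3, the factor activated directly by sensor signalling, stood at 46.6, 97.2 and 49.2 CPM in SCR DMSO, 33.5, 37.6 and 31.3 in SCR AAI, 70.1, 71.7 and 72.8 in siB DMSO, and 26.8, 34.2 and 31.8 in siB AAI. The highest value was that of SCR DMSO replicate 2, and no AAI library reached a DMSO library. IRF3 fell by 1.19 ± 0.12 in siB cells (adjusted p = 6.2e-05). In SCR cells its change was -0.82 ± 0.31 (adjusted p = 0.14), -0.48 ± 0.22 without SCR DMSO replicate 2 (adjusted p = 0.14), and past the test with the replicate number as a block (adjusted p = 0.044). IRF3 (chr19:49659569-49665875, minus strand) overlaps BCL2L12 on the opposite strand; whether reads were counted by strand is not stated, so reads of the pair cannot be told apart.

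IRF7, the interferon-induced partner of IRF3, averaged 18.8 ± 1.65 CPM in siB DMSO against 11.2 ± 0.393 in siB AAI (SD, n = 3) and fell by 0.69 ± 0.14 (adjusted p = 0.0028). In SCR cells it averaged 13.7 ± 3.97 and 10.4 ± 3.26 CPM, and the groups overlapped. STAT2 averaged 58.1 ± 12.4 CPM in SCR DMSO, 50.1 ± 3.30 in SCR AAI, 65.5 ± 1.47 in siB DMSO and 52.5 ± 3.93 in siB AAI, and fell by 0.32 ± 0.11 in siB cells (adjusted p = 0.035), a call lost without siB AAI replicate 1 or 3 or siB DMSO replicate 2 or 3 (adjusted p = 0.057 to 0.12). The call of STAT2 was also lost with all 4 groups in the limma fit (adjusted p = 0.16). IRF9, the DNA-binding partner of STAT2, averaged 22.0 ± 1.98, 27.5 ± 5.80, 14.9 ± 1.03 and 18.3 ± 1.68 CPM, and its changes with AAI of 0.29 ± 0.25 and 0.28 ± 0.14 were not past the test (adjusted p = 0.49 and 0.13). IRF1, a factor also induced by interferon gamma and DNA damage, was 39.0 ± 7.08 CPM in SCR DMSO against 64.2 ± 3.42 in SCR AAI; the change of 0.72 ± 0.22 had an adjusted p of 0.077 and was past the test without SCR DMSO replicate 2 (adjusted p = 0.040) and with the replicate block (adjusted p = 0.048). Leaving out SCR DMSO replicate 2 put 3156 of all 14228 genes past the test in SCR cells. In siB cells IRF1 changed by 0.20 ± 0.13 (adjusted p = 0.21).

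**Figure D3:**
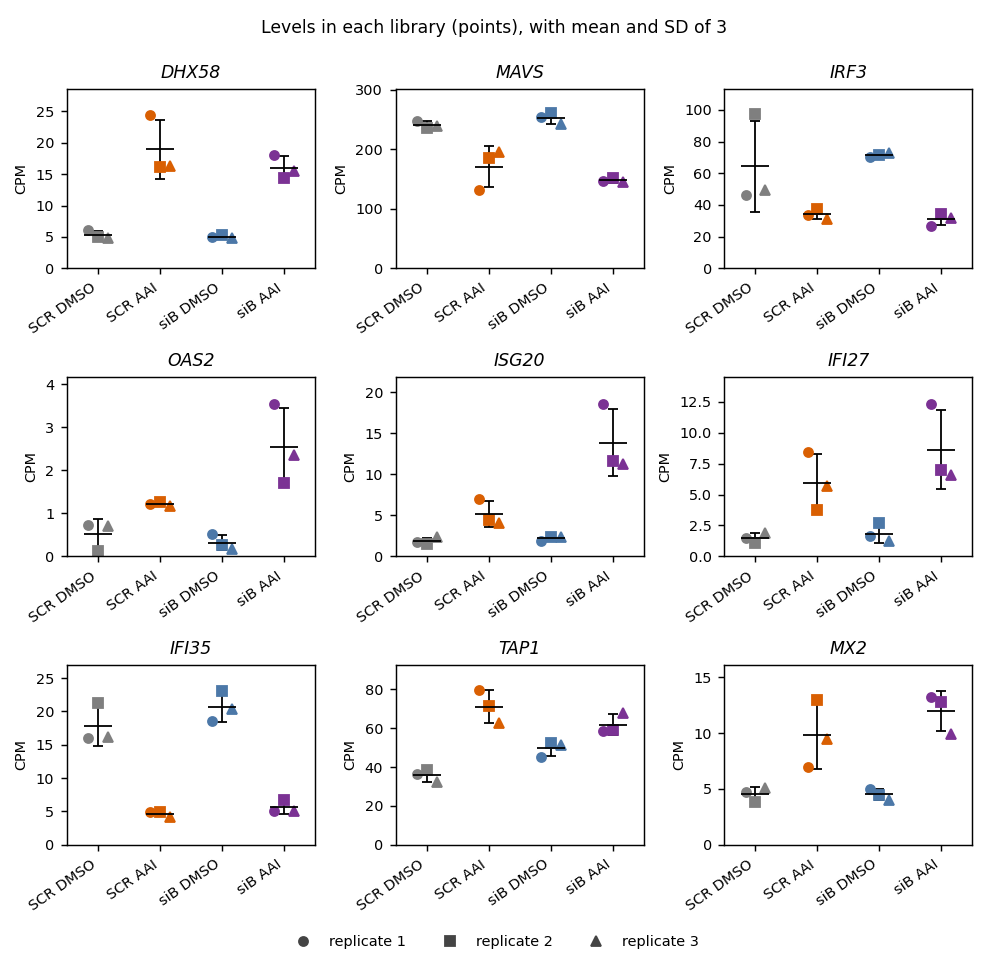
Levels in CPM of DHX58, MAVS, IRF3, OAS2, ISG20, IFI27, IFI35, TAP1 and MX2 in the 4 groups; each point is a library, its shape gives the replicate, and the bar and whiskers are the mean and SD of 3. IFI35 is at 6.65 CPM or less in every AAI library and at 16 CPM or more in every DMSO library, and ISG20 is highest in the 3 siB AAI libraries.

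The IFIT and OAS families had members past the test in siB cells alone. The IFIT proteins bind foreign RNA caps and block translation, and the OAS enzymes make the second messenger of RNase L. None of the 7 tested members was past the test in SCR cells. In siB cells OAS2 rose and OAS1 and IFIT3 fell, where 30.4% of all genes tested rose and 21.8% fell. OAS2 was tested in either background only through its AAI libraries, so it had to be high there to be tested. OAS1 stood at 6.52, 4.37 and 6.51 CPM in SCR DMSO, 6.52, 3.85 and 3.95 in SCR AAI, 6.75, 6.04 and 7.14 in siB DMSO, and 3.85, 3.51 and 3.38 in siB AAI. The siB groups did not overlap, the SCR groups did, and OAS1 fell by 0.74 ± 0.16 in siB cells (adjusted p = 0.0039). OAS2 was at 0.739, 0.117 and 0.699 CPM in SCR DMSO, 1.21, 1.27 and 1.17 in SCR AAI, 0.513, 0.271 and 0.167 in siB DMSO, and 3.53, 1.71 and 2.36 in siB AAI. Both AAI groups lay above their DMSO groups, on few reads: 5 to 19 per library in SCR DMSO, 3 to 12 in siB DMSO and 37 to 56 in siB AAI. OAS2 rose by 1.40 ± 0.22 in siB cells (adjusted p = 0.00070), and its change in SCR cells, 0.58 ± 0.21, was not past the test (adjusted p = 0.13), nor was that without SCR DMSO replicate 2, 0.37 ± 0.22 (adjusted p = 0.25). OAS3 averaged 87.2 to 97.6 CPM in the 4 groups, with changes of 0.10 ± 0.22 and 0.03 ± 0.14. The 3 OAS genes lie next to each other on chromosome 12, from 112905856 to 113011723 on hg38. OASL stayed at 2 to 19 reads per library and was not tested.

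IFIT3 stood at 28.7, 6.84 and 22.8 CPM in SCR DMSO, 22.7, 15.4 and 19.0 in SCR AAI, 26.8, 19.4 and 22.0 in siB DMSO, and 13.1, 15.4 and 12.2 in siB AAI. Only the siB groups were apart, and IFIT3 fell by 0.70 ± 0.17 there (adjusted p = 0.0062). With all 4 groups in the limma fit that call was lost (adjusted p = 0.20). In SCR cells its change was 0.16 ± 0.49, and -0.43 ± 0.26 without SCR DMSO replicate 2 (adjusted p = 0.27). IFIT1 averaged 7.87 ± 5.72 CPM in SCR DMSO, 4.20 ± 0.522 in SCR AAI, 5.88 ± 1.32 in siB DMSO and 5.62 ± 0.835 in siB AAI. Its change in SCR cells of -0.55 ± 0.47 (adjusted p = 0.49) became -1.06 ± 0.31 and past the test without SCR DMSO replicate 2 (adjusted p = 0.028), which alone was at 2.76 CPM against 14.0 and 6.80 CPM; in siB cells it was -0.04 ± 0.20 (adjusted p = 0.86). Leaving out SCR DMSO replicate 2 put 3156 of all 14228 genes past the test in SCR cells. IFIT2 changed by -0.91 ± 0.49 in SCR cells (adjusted p = 0.28) and by -0.73 ± 0.28 in siB cells (adjusted p = 0.055), and in SCR cells it was past the test with the replicate block (adjusted p = 0.031). IFIT5, which binds uncapped RNA ends, changed by 0.48 ± 0.39 and -0.24 ± 0.16 (adjusted p = 0.47 and 0.25), and in SCR cells by 0.07 ± 0.27 without SCR DMSO replicate 2 (adjusted p = 0.88).

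The remaining effectors held members that moved far in either direction. IFI35, which binds the partner protein NMI, stood at 16, 21.2 and 16.2 CPM in SCR DMSO, 4.91, 4.89 and 4.19 in SCR AAI, 18.6, 23.0 and 20.4 in siB DMSO, and 4.99, 6.65 and 5.09 in siB AAI. All AAI libraries were far below all DMSO libraries. IFI35 (chr17:43006740-43014456, plus strand, overlapping no annotated gene) fell by 1.72 ± 0.25 in SCR cells (adjusted p = 0.0034) and by 1.72 ± 0.17 in siB cells (adjusted p = 4.2e-05), under 13 of 13 alternatives in each. ISG20, an exonuclease of single-stranded RNA, stood at 1.76, 1.54 and 2.32 CPM in SCR DMSO, 6.96, 4.40 and 4.11 in SCR AAI, 1.88, 2.34 and 2.40 in siB DMSO, and 18.6, 11.6 and 11.3 in siB AAI. No AAI library overlapped a DMSO library, and no siB AAI library overlapped an SCR AAI library. ISG20 (chr15:88635670-88656483, plus strand) rose by 1.08 ± 0.26 in SCR cells (adjusted p = 0.031) and by 2.18 ± 0.21 in siB cells (adjusted p = 4.2e-05). The call in SCR cells was lost without any 1 library other than SCR DMSO replicate 2, with adjusted p-values from 0.063 to 0.088.

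IFI27, a small mitochondrial and nuclear membrane protein used as an interferon marker, stood at 1.52, 1.12 and 1.88 CPM in SCR DMSO, 8.39, 3.76 and 5.72 in SCR AAI, 1.62, 2.71 and 1.23 in siB DMSO, and 12.3, 6.97 and 6.59 in siB AAI. Its AAI libraries were all above its DMSO libraries, and replicate 1 was the highest of both AAI groups. IFI27 (chr14:94104836-94116695, plus strand) rose by 1.43 ± 0.29 in SCR cells (adjusted p = 0.018) and by 1.74 ± 0.27 in siB cells (adjusted p = 0.00060); in SCR cells it was not past the test without SCR AAI replicate 1 (adjusted p = 0.053) or replicate 3 (adjusted p = 0.075). MX2, a dynamin-like inhibitor of viral entry to the nucleus, stood at 4.76, 3.81 and 5.07 CPM in SCR DMSO, 6.96, 13.0 and 9.47 in SCR AAI, 5.0, 4.46 and 4.01 in siB DMSO, and 13.3, 12.8 and 9.91 in siB AAI. The groups did not overlap in either background. MX2 rose by 1.24 ± 0.17 in siB cells (adjusted p = 0.00036), and its change in SCR cells was 0.93 ± 0.29 (adjusted p = 0.075). With all 4 groups in the limma fit MX2 was past the test in SCR cells (adjusted p = 0.0096). Its neighbour MX1 averaged 6.81 ± 1.56, 8.42 ± 0.530, 6.92 ± 0.661 and 9.87 ± 1.61 CPM, with changes of 0.29 ± 0.25 (adjusted p = 0.51) and 0.45 ± 0.17 (adjusted p = 0.051).

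At low reference levels more genes of any kind were past the test as higher. Of the genes averaging 1 to under 10 CPM in SCR DMSO, 10.7% of 3526 were higher with AAI, as were 3 of 13 members (DHX58, IFI27 and ISG20). Of those at 1 to under 10 CPM in siB DMSO, 33.9% of 3566 were higher, as were 4 of 13 members (DHX58, IFI27, ISG20 and MX2), and 15.6% were lower, as were 4 members (IFI44, IFI44L, IFITM1 and OAS1).

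IFITM1, which blocks fusion of viruses at membranes, stood at 9.52, 3.46 and 6.07 CPM in SCR DMSO, 9.11, 3.67 and 2.62 in SCR AAI, 7.27, 6.45 and 10.7 in siB DMSO, and 5.55, 3.46 and 3.22 in siB AAI. Only the siB groups were apart, and IFITM1 fell by 0.85 ± 0.24 there (adjusted p = 0.014). BST2 averaged 120.3 ± 2.50 CPM in siB DMSO and 87.4 ± 7.82 in siB AAI and fell by 0.46 ± 0.11 (adjusted p = 0.0051); in SCR cells it averaged 118 ± 31.8 and 76.0 ± 9.17 CPM, and the change of -0.60 ± 0.24 was not past the test (adjusted p = 0.16). With all 4 groups in the limma fit BST2 was past the test in SCR cells (adjusted p = 0.027) and not in siB cells (adjusted p = 0.067). IFI44L fell by 0.65 ± 0.20 (adjusted p = 0.021) and IFI44 by 0.45 ± 0.17 (adjusted p = 0.0495) in siB cells. The call of IFI44 was lost without siB AAI replicate 2 or 3 or any 1 of the siB DMSO libraries, that of IFI44L without siB AAI replicate 2 or 3 or siB DMSO replicate 1 or 3, and that of IFITM1 without siB AAI replicate 2 or 3 or siB DMSO replicate 3 (adjusted p = 0.051 to 0.063 for IFITM1). The calls of IFITM1, IFI44L and IFI44 were also lost with all 4 groups in the limma fit (adjusted p = 0.12, 0.39 and 0.13). IFI44L changed by -0.40 ± 0.65 in SCR cells, and by -1.21 ± 0.33 without SCR DMSO replicate 2 (adjusted p = 0.022), where it was at 0.701 CPM against 11.2 and 5.85 CPM. Leaving out that library put 3156 of all 14228 genes past the test in SCR cells. IFI44 changed by -0.29 ± 0.26 in SCR cells (adjusted p = 0.51), and by -0.54 ± 0.24 without that library (adjusted p = 0.13). ISG15 averaged 28.2 ± 10.5, 32.0 ± 12, 33.9 ± 3.42 and 29.8 ± 7.33 CPM, and the changes of 0.17 ± 0.36 and -0.20 ± 0.18 were not past the test (adjusted p = 0.79 and 0.36). Its protease USP18, which also damps the interferon receptor, changed by 0.23 ± 0.18 and -0.48 ± 0.20 (adjusted p = 0.46 and 0.069). IFITM3 was not past the test in either background, and IFITM2, at 1 to 27 reads per library, was not tested. IFI6 changed by 0.09 ± 0.34 in SCR cells (adjusted p = 0.90) and by -0.41 in siB cells (adjusted p = 0.0502). Its siB groups did not overlap. In siB cells it was past the test with median-ratio scaling (adjusted p = 0.016), a pseudocount of 0.1 (0.0497), voom (0.046) and the replicate block (0.043). It was also past without siB AAI replicate 1 (0.022) or siB DMSO replicate 1 (0.043).

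Antigen presentation held 4 measured members. TAP1, a subunit of the peptide transporter that loads HLA class I, stood at 36.6, 38.3 and 32.2 CPM in SCR DMSO, 79.6, 71.5 and 62.4 in SCR AAI, 44.9, 52.6 and 51.5 in siB DMSO, and 58.7, 58.9 and 68.0 in siB AAI. Every AAI library was above the DMSO libraries of its own background. TAP1 (chr6:32845209-32853816, minus strand, overlapping PSMB9 and PSMB8-AS1 on the opposite strand) rose by 0.97 ± 0.21 in SCR cells (adjusted p = 0.022), a call lost under median-ratio scaling (adjusted p = 0.089) and without any 1 of the SCR AAI libraries or SCR DMSO replicate 3. In siB cells the change was 0.31 ± 0.12 (adjusted p = 0.054). B2M averaged 349 ± 12.6 CPM in siB DMSO and 423 ± 40.2 in siB AAI and rose by 0.28 ± 0.10 (adjusted p = 0.044), a call lost with median-ratio scaling (adjusted p = 0.25) and without any 1 siB library other than AAI replicate 2; in SCR cells it changed by -0.11 ± 0.25 (adjusted p = 0.81). The call of B2M in siB cells was also lost with all 4 groups in the limma fit (adjusted p = 0.28). HLA-B changed by 0.07 ± 0.28 and 0.25 ± 0.15 and HLA-C by -0.06 ± 0.26 and -0.12 ± 0.14, none past the test (lowest adjusted p 0.206).

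Members with and without the response element core were set side by side. With AAI in SCR cells, 3 of 18 tested members with the core rose (ISG20, IFI27 and TAP1) and 0 fell. Of 12 with a promoter but no core, 0 rose and 1 fell (IFI35). Of 8 with no promoter entry, which could not be placed in either set, 1 rose (DHX58) and 0 fell. Over all genes tested, 8.98% rose and 3.36% fell. The calls of ISG20, IFI27 and TAP1 were each lost when certain single libraries were left out. In siB cells 3 of 18 with the core rose and 5 fell, and of 12 without it 1 rose and 4 fell. Of 9 with no promoter entry, 4 rose and 2 fell in siB cells. Over all genes tested, 30.4% rose and 21.8% fell there. The median log2 change was 0.10 both with and without the core in SCR cells, and -0.10 with and -0.08 without the core in siB cells. A link between the core and the direction of change was not tested.

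Genes of the same pathway outside the list were followed for comparison, 63 in all. Of the 51 other pathway genes tested in SCR cells, 1 rose and none fell, against 8.98% and 3.36% of all genes. The 1 that rose was MB21D1 (cGAS, the cytosolic DNA sensor upstream of STING), by 0.98 ± 0.26 (adjusted p = 0.046). Of 52 tested in siB cells, 7 rose and 17 fell, against the 30.4% and 21.8% of all genes. Past the test with at least 2-fold were, among others, ZBP1 (a sensor of Z-form nucleic acid) at 1.58 ± 0.27, XAF1 (a promoter of apoptosis) at 1.25 ± 0.21, GBP2 (a guanylate-binding protein) at -1.35 ± 0.33 and PSMB9 (an immunoproteasome subunit) at -1.28 ± 0.15. Among the 10 other antigen presentation genes none rose and 5 fell in siB cells, against 30.4% and 21.8% of all genes. PSMB8, PSMB10 and NLRC5 were among the 5 and were named after their values were seen.

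Interferon genes themselves were at or near 0. IFNB1 had no read in 9 libraries and 4, 11 and 2 reads in the 3 siB AAI libraries. IFNL1 had no read in any library, and IFNA1, IFNL2, IFNL3 and IFNK had at most 8 reads in any. IFNE, the interferon of epithelia, had 0 to 4 reads in the DMSO libraries and 4 to 19 in the AAI libraries. All were under the level filter and not tested; without a filter IFNB1 had an adjusted p of 0.032 for AAI in siB cells and of 0.092 for siB against SCR in AAI, and IFNE one of 0.023 for AAI in siB cells and of 0.20 in SCR cells. The depth cannot show whether IFNB1 differed in SCR cells, where 3 reads were the limit in every library.

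The next question was what POLR2A knockdown changed in AAI-treated cells. These comparisons share the SCR AAI or siB AAI libraries with those of AAI against DMSO, so their values are given side by side and not related to them. Of 38 members tested, 1 was higher (ISG20) and 0 were lower, against 5.49% and 3.79% of 14946 genes; with the 2-fold limit 1 was higher and 0 lower, against 3.04% and 0.629% of all genes. With no overlap there were 5 higher (IFI35, IFIT1, ISG20, OAS2 and TRIM22) and 5 lower (IFIT5, IRF9, OAS1, TMEM173 and USP18), against 15.1% and 15.8%. At an unadjusted p under 0.05 there were 8 members and 25.5% of all genes, and voom in limma also gave 1 higher and 0 lower. ISG20 averaged 5.15 ± 1.57 CPM in SCR AAI and 13.8 ± 4.10 in siB AAI (SD, n = 3) and rose by 1.26 ± 0.25 (adjusted p = 0.010); without SCR AAI replicate 3 the change was 1.14 and not past the test (adjusted p = 0.078). Without SCR AAI replicate 1 B2M was also higher (0.64, adjusted p = 0.016). Of the genes at 1 to under 10 CPM in SCR AAI, 8.88% of 4177 were higher in siB AAI, as was ISG20 alone of 13 members.

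In this comparison libraries with the same number deviated together, and a fit with the replicate number as a block put 5 of the 38 members higher and 4 lower past the test, where 15.2% of all genes were higher and 13.8% lower: ISG20 (adjusted p = 1.5e-10), B2M (0.0095), OAS2 (0.016), TRIM22 (0.017) and IFI27 (0.037) rose, and IRF9 (0.0048), IFIT5 (0.011), TMEM173 (0.012) and IFIT3 (0.028) fell. The block leaves little of each gene's own spread to estimate, so limma took it largely from genes of a like level. These blocked p-values, that of ISG20 among them, therefore do not measure the spread of each gene. The sizes were 0.45 ± 0.19 for B2M, 0.64 ± 0.23 for OAS2, 0.68 ± 0.22 for TRIM22, -0.54 ± 0.19 for IRF9, -0.52 ± 0.19 for IFIT5 and -0.62 ± 0.21 for TMEM173, with standard errors of the fit without the block. TMEM173 stood at 4.09, 4.76 and 3.84 CPM in SCR AAI and 2.84, 2.03 and 2.36 CPM in siB AAI, with no overlap. TRIM22, a ubiquitin ligase that restricts viral transcription, stood at 0.386, 0.680 and 0.626 CPM in SCR AAI and 1.96, 1.34 and 1.23 CPM in siB AAI, on 7 to 16 and 23 to 31 reads, and passed the level filter here only through the siB AAI libraries. Of 52 other pathway genes, XAF1 (1.04 ± 0.21), ZBP1 (0.98 ± 0.27) and IFNAR1 (0.71 ± 0.17), a chain of the receptor for type I interferons, rose and DTX3L (-0.84 ± 0.19), a ubiquitin ligase that works with PARP9, fell without the block (adjusted p = 0.011, 0.042, 0.024 and 0.017). Without the block 5.49% of all genes tested were higher and 3.79% lower.

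**Figure D4:**
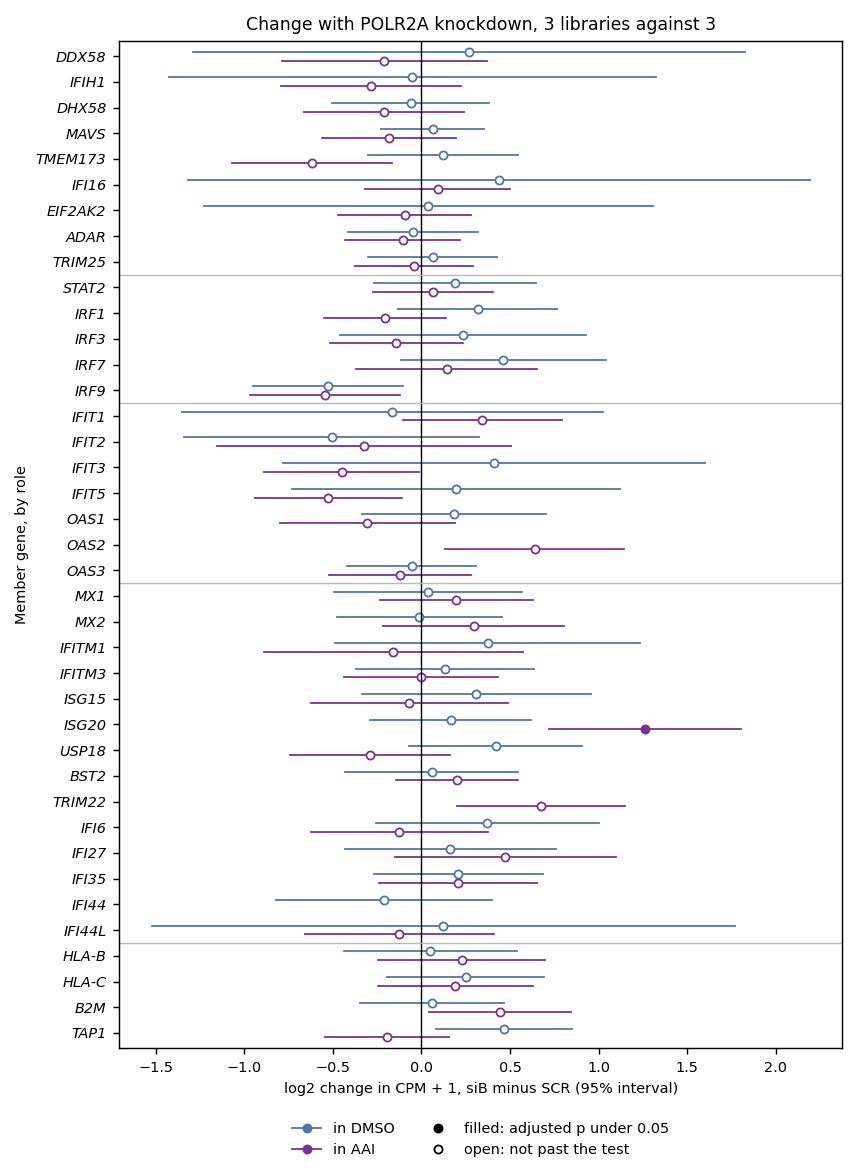
Change with POLR2A knockdown of the 39 members tested in at least 1 comparison (log2 of CPM + 1, siB minus SCR), in DMSO (blue) and in AAI (purple), each 3 libraries against 3; lines are 95% intervals and filled points are past the test. ISG20 in AAI, at 1.26, is the only filled point, and the DMSO intervals of IFI16, IFI44L and DDX58 are the widest.

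Markers of other cell types did not move one way in siB AAI. The summed endothelial markers (PECAM1, VWF and CDH5) were 3.75 to 5.62 CPM in siB AAI against 1.12 to 2.50 CPM in the other 9 libraries, through PECAM1, while CDH5 was at most at 0.369 CPM and VWF at most at 0.832 CPM in any library. Among leukocyte markers PTPRC was at 2.52 to 2.91 CPM in siB AAI and at 1.34 CPM or less elsewhere, CD3E had no read in any library, MS4A1 had reads in 1 library, and the summed list, mostly CD68, ran from 74.3 to 81.1 CPM in siB AAI and from 74.1 to 109 CPM elsewhere. CSF1R, a leukocyte marker, averaged 6.45 CPM in siB AAI and 6.66 in SCR AAI, against 12.6 in siB DMSO and 13.2 in SCR DMSO. VWF averaged 0.0568 CPM in siB AAI and 0.434 in siB DMSO. The summed fibroblast markers (DCN, COL1A1 and PDGFRB) were 11.7 to 22.9 CPM in siB AAI and 21.9 to 26.1 in SCR AAI. In siB DMSO they were 32.6 to 35.8 CPM and in SCR DMSO 30.5 to 53.5. The part of such cells in the changes of ISG20, OAS2 and TRIM22 was not tested.

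In DMSO, knockdown put no member past the test. Of 37 members tested, 0 were higher and 0 lower by limma, where 0.0% of 13606 genes were past the test in either direction, and voom also gave 0. The knocked-down gene POLR2A was itself not past this test (-1.01 ± 0.13, adjusted p = 0.51), although its groups did not overlap. The lack of calls therefore cannot show that the members stayed the same. At an unadjusted p under 0.05 there were 2 members, TAP1 at 0.47 ± 0.16 and IRF9 at -0.53 ± 0.18, against 4.73% of all genes. With no overlap there were 3 higher (TAP1, TMEM173 and USP18) and 1 lower (IRF9), against 8.28% and 3.64%. IRF9 stood at 23.1, 23.1 and 19.7 CPM in SCR DMSO and 14.6, 14.1 and 16.1 CPM in siB DMSO. The log2 changes of the members ran from -0.53 to 0.47, and the 95% interval lay within 2-fold in both directions for 25 of the 37. It did not for IFI16 (-1.32 to 2.19), IFI44L (-1.52 to 1.77) or DDX58 (-1.29 to 1.82), members that were low in SCR DMSO replicate 2. Without that library their changes turned from 0.44 ± 0.73 to -0.48 ± 0.19 for IFI16, from 0.12 ± 0.69 to -0.69 ± 0.30 for IFI44L and from 0.27 ± 0.65 to -0.50 ± 0.28 for DDX58 (adjusted p = 0.23, 0.26 and 0.34). The direction also turned for IFIT3 (0.41 to -0.18), IFIT5 (0.20 to -0.21), EIF2AK2 (0.04 to -0.54), MX1 and B2M, and IFI44 went from -0.21 ± 0.26 to -0.46 ± 0.20 (adjusted p = 0.25), IFIH1 from -0.05 to -0.68 (0.29) and IFIT1 from -0.17 to -0.67 (0.28). No member and no gene was past the test without it (lowest adjusted p of a member 0.16, for IRF3), and 8 members and 20.2% of all genes had an unadjusted p under 0.05.

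Whether AAI acted differently in siB and SCR cells was tested as the interaction over all 4 groups. Of 39 members tested 1 was past the test, TRIM22, as higher, where 1.46% of 15325 genes were past the test as higher and 0.157% as lower. TRIM22 stood at 1.06, 0.537 and 0.772 CPM in SCR DMSO and 0.386, 0.680 and 0.626 in SCR AAI, against 0.256, 0.0902 and 0.167 in siB DMSO and 1.96, 1.34 and 1.23 in siB AAI. The siB groups were apart and the SCR groups overlapped. The effect of AAI in siB cells minus that in SCR cells was 1.28 ± 0.23 (adjusted p = 0.019); it was past the test under 10 of 17 alternatives, not without SCR DMSO replicate 1 or 3, SCR AAI replicate 3 or any 1 of the siB DMSO libraries (adjusted p = 0.050 to 0.071), and voom on the reads gave 3.39 (adjusted p = 0.17). TRIM22 (chr11:5689610-5737089, plus strand) overlaps TRIM5 and other genes, and its siB DMSO libraries held 2 to 6 reads. It passed the level filter through the 3 siB AAI libraries, since 1 of the other 9 libraries reached 1 CPM, so the group in which it was high decided that it was tested. ISG20 (1.10 ± 0.34, adjusted p = 0.15), OAS2 (0.82 ± 0.31, 0.26), TMEM173 (-0.74 ± 0.23, 0.16), USP18 (-0.71 ± 0.25, 0.21), TAP1 (-0.66 ± 0.21, 0.17) and IRF1 (-0.52 ± 0.23, 0.35) had an unadjusted p under 0.05 only, in all 7 members with TRIM22 against 13.3% of all genes. For IFI35 the difference was 0.00 (95% interval -0.58 to 0.58) and for DHX58 -0.15 (-0.76 to 0.46).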

How the data were processed

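RNA was sequenced from HK-2 cells in 4 groups of 3. The authors' methods name alignment of read pairs to hg38, gene-level quantification with the UCSC annotation and limma between pairs of groups, run in BioJupies; the aligner and strand setting are not given in the sources used here. The deposited values are log10 of CPM plus 1, with column names read as siRNA, first letter of the treatment and replicate. From them CPM and whole reads (all values whole within 0.05 of a read) were recovered; depth is given in the report. Each pair of groups was tested with limma 3.58.1 in R 4.3.3 (lmFit, eBayes with trend) on log2(CPM + 1), over genes at 1 CPM or more in at least 3 libraries, with Benjamini-Hochberg correction; the interaction was fitted over all 4 groups. No set test was run. Members and lists were chosen with earlier results of these data known.

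Every member could be named; those past the test have their value in every library, at most 12 per comparison by size of change, and other pathway genes needed at least 2-fold as well, with the interferon genes named in any case; some genes of these lists are not reported here. PSMB8, PSMB10, NLRC5, MB21D1, IFNAR1 and DTX3L were named after their values were seen. Libraries with the same replicate number deviated together in AAI against DMSO in SCR cells (correlations of deviations from the group means 0.43, 0.49 and 0.35) and in siB against SCR in AAI (0.64, 0.33 and 0.30), over 14465 genes, so blocked values are given there where they change a call. No 2 replicates were copies: chi-square per degree of freedom between their reads was at least 4.23. Positions and overlaps come from GENCODE 44 on hg38, with 41 of 41 members placed, 2 through a RefSeq synonym. Alternatives were fits without a filter or with one on a mean of at least 5 CPM, a pseudocount of 0.1, median-ratio scaling, all 4 groups in the fit, the replicate block, voom in limma, and each library left out.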

Additional observations from a re-analysis of the deposited data

Results flagged for a closer look

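The effect of AAI on TRIM22 differed between siB and SCR cells by 1.28 on the log2(CPM + 1) scale in the test of the difference itself (limma, adjusted p = 0.019), from levels of at most 1.96 CPM in any library. TRIM22 was tested only because the 3 siB AAI libraries, in which it was high, reached 1 CPM; 1 of the other 9 did. With 3 libraries a group, single libraries were not tested as outliers.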

How the results depend on the processing

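IFI35 and DHX58 were past the test with AAI in both backgrounds under every alternative run, and no called value changed sign. In SCR cells the 4 members higher with AAI became 2 with no filter, 2 at a mean of at least 5 CPM and 7 with all 4 groups in the fit, and the 1 lower became 4 with all 4 groups and 3 with the replicate block. In siB cells the 11 lower became 6 with all 4 groups and 2 with the 2-fold limit. For siB against SCR in AAI the 1 higher became 2 with all 4 groups and 5 with the replicate block, and the 0 lower became 1 and 4. The 1 interaction became 0 at a mean of at least 5 CPM, where TRIM22 was not tested, and 0 with voom. The cause was not tested. Leaving out 1 library gave 1 to 5 higher and 1 to 3 lower in SCR cells, 7 to 9 higher and 7 to 13 lower in siB cells, 0 to 2 higher and 0 lower for siB against SCR in AAI, 0 in DMSO, and 0 to 1 interaction. The 1 higher member in SCR cells was that left without SCR AAI replicate 1 or 3 (DHX58), the 3 lower came without SCR DMSO replicate 2, the 7 lower in siB cells came without siB DMSO replicate 3 or siB AAI replicate 3, the 13 lower without siB AAI replicate 1, and the counts of 0 and 2 for siB against SCR in AAI came without SCR AAI replicate 3 and replicate 1. Without SCR DMSO replicate 2, 3156 of 14228 genes and 8 of 38 members were past the test with AAI in SCR cells. The replicate block gave 11 higher and 12 lower in siB cells and 0 in DMSO, where same-numbered libraries did not all deviate together (lowest correlations 0.025 and -0.20), and it kept the 1 interaction. Over all 14928 genes tested in siB cells the block put 5072 higher and 3528 lower, and in DMSO 0 genes were past the test. Shares over all genes for the fit with all 4 groups are not reported here. Of 1945 values of single members under the alternatives, in the 4 comparisons of pairs of groups, 1752 kept their direction and side of the threshold, 49 fell out of the test, 45 came into it and 99, not past the test in either setting, changed sign.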
